A study of Mus musculus with 6 samples.

Results

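The insulin-like growth factor (IGF) axis and the imprinted RNA H19 were followed through 10 genes by RNA sequencing of quadriceps, a thigh muscle, from mice aged 10 days. The genes were chosen by name, as the ligands Igf1 and Igf2, the receptors Igf1r and Igf2r, the binding proteins Igfbp3, Igfbp4 and Igfbp5, the growth hormone receptor Ghr, the adaptor Irs1 and H19. The choice was made with earlier results of these data known. All 10 were found among the 54532 rows of the count table, and all 10 were among the 14715 genes with enough counts to be tested. The Myf5Cre-Pcyt2 group (3 libraries) came from pups of genotype Myf5Cre-Pcyt2 flox/flox, with Cre driven from Myf5, which is active in muscle precursors and also in precursors of brown fat. The control group (3 libraries) came from Pcyt2 flox/flox pups, so both groups carry the floxed Pcyt2 alleles. Both groups were on chow, and the label of the series asks what depletion of Pcyt2, an enzyme of phosphatidylethanolamine synthesis, does to gene expression in the early muscle lineage. No label says that control pups carry Cre, so what Pcyt2 loss does and what Cre does cannot be told apart. Litters are not named in the labels, and the p-values therefore speak of the spread among these 6 libraries only.

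IGF1 and IGF2 are secreted growth factors that signal for growth through the IGF1 receptor and the adaptor IRS1. The IGF2 receptor carries IGF2 to the lysosome, binding proteins hold both ligands outside the cell, and growth hormone acting through its receptor drives Igf1 transcription. In mice Igf2 is transcribed from the paternal and H19 from the maternal chromosome, the neighbours share enhancers, and both are high in fetal and neonatal muscle and then decline.

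Library totals were 18271765 to 20446920 counts in Myf5Cre-Pcyt2 and 17775898 to 20216013 counts in control, and replicate 3 of each group was male and the others female by Xist and Y-linked counts. Levels are given as CPM, counts divided by a library total that edgeR's TMM method had corrected for differences in composition. Pcyt2 had 280, 328 and 272 counts in Myf5Cre-Pcyt2 and 353, 277 and 277 in control. The raw counts overlapped, whereas after scaling every Myf5Cre-Pcyt2 library (14.9, 14.3 and 12.6 CPM) was below every control library (18.7, 16.1 and 16.0 CPM), with a log2 fold change of −0.28 (adjusted p = 0.0944, SE 0.11). The sources used here do not give the deleted part of Pcyt2, and counts over the whole gene do not measure the intact transcript. Myf5, the gene that drives Cre, had a log2 fold change of 0.13 (adjusted p = 0.633, SE 0.18). Summed levels of 7 muscle fibre markers were 93178 to 124784 CPM in Myf5Cre-Pcyt2 and 156032 to 216994 CPM in control, and 4 of the 7 were called lower. Of 4 satellite cell and myoblast markers 2 were called higher (164 to 189 CPM in Myf5Cre-Pcyt2, 140 to 153 CPM in control, summed), as were 1 of 5 fibroblast markers (11517 to 13130.0 CPM in Myf5Cre-Pcyt2, 8372 to 10905 CPM in control), 2 of 3 tenocyte markers (147 to 161 CPM in Myf5Cre-Pcyt2, 103 to 120.5 CPM in control) and 2 of 3 Schwann cell markers (318 to 445 CPM in Myf5Cre-Pcyt2, 219 to 258 CPM in control). The called fibroblast marker was Pdgfra, with means of 82.2 CPM in Myf5Cre-Pcyt2 and 56.5 CPM in control. The fibroblast sum is mostly Col1a1 and Col3a1, which were not called (adjusted p = 0.184 and 0.0858). None of the 4 endothelial, 4 macrophage, 4 adipocyte or 4 erythroid markers was called, and the 3 hepatocyte markers were too low to test. Control replicate 1 stood apart in fat genes, with 50.2 CPM of Adipoq and 102 CPM of Plin1, against 5.51 and 17.9 CPM of Adipoq and 7.95 and 28.8 CPM of Plin1 in the other control libraries. The summed adipocyte markers were 47.5 to 67.3 CPM in Myf5Cre-Pcyt2 and 17.8 to 193 CPM in control. Myf5Cre-Pcyt2 replicate 1 had 186 counts of the liver gene Alb, against 3 to 24 counts in each of the other 5 libraries. No marker in these lists was at 0 in all 6 libraries. The part of these cell types in the results below was not tested, and in whole muscle fewer cells of a type and less RNA per cell cannot be told apart.

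In Myf5Cre-Pcyt2 muscle both ligands and both of their receptors rose, Igfbp5 and Ghr fell, and H19, Igfbp3, Igfbp4 and Irs1 did not pass the test. A gene is called here when its p from edgeR's quasi-likelihood test, adjusted by Benjamini-Hochberg over all 14715 tested genes, is under 0.05. Of the 10 genes 6 were called, where 18.6% of all tested genes were. The 10 were chosen with earlier results of these data known. Their counts, separation and median beside all tested genes are therefore a description and not an independent test. The 4 higher calls stand beside 9.02% of all tested genes called higher, and the 2 lower calls beside 9.59% called lower. With library size alone in place of TMM, which moves the median of all genes up by 0.21 (log2), 6 of the 10 were called higher and none lower, and 86.6% of all calls were higher, against 48.5% with TMM. The higher calls among the 10 numbered 2 when Myf5Cre-Pcyt2 replicate 1 or 2 or control replicate 2 was left out. The lower calls numbered 1 without Myf5Cre-Pcyt2 replicate 1 or control replicate 3 and 0 without any other library. The Myf5Cre-Pcyt2 and control libraries did not overlap for 8 of the 10 genes, against 39% of all tested genes. Of those 8, 6 were higher in every Myf5Cre-Pcyt2 library (19.9% of all tested genes) and 2 were lower in every one (19.2%). The median log2 fold change of the 10 genes was 0.36, against −0.0020 over all tested genes.

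**Figure D1:**
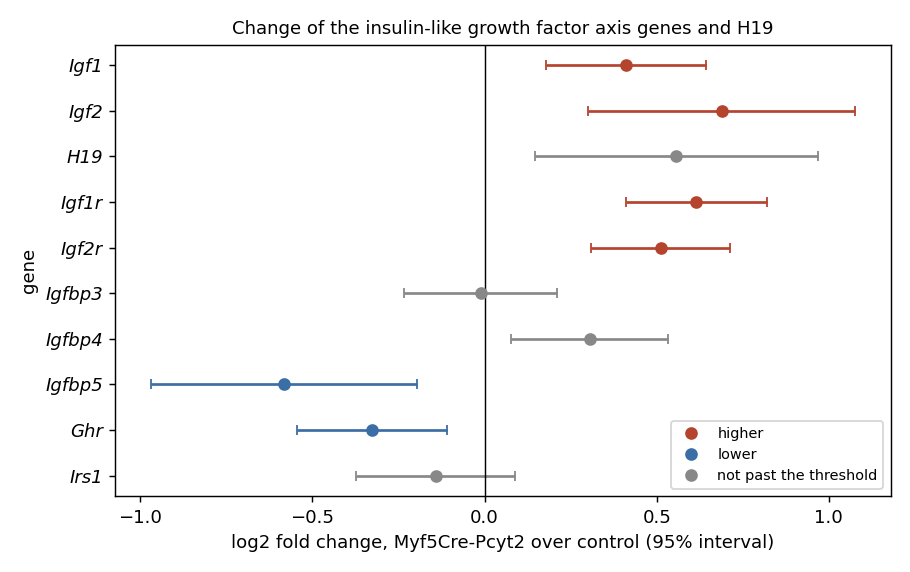
Log2 fold change (Myf5Cre-Pcyt2 over control) of the 10 genes on the horizontal axis, with 95% intervals from the fit across all genes and 3 libraries per group. Igf1, Igf2, Igf1r and Igf2r lie to the right of 0 and past the threshold (red), Igfbp5 and Ghr lie to the left and past it (blue), and the other 4 genes did not pass (grey).

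Igf1 (ENSMUSG00000020053, protein coding, GRCm38 chr10:87858265-87937042, plus strand), the ligand that growth hormone induces in liver and muscle, had 207, 204 and 206 CPM in Myf5Cre-Pcyt2 and 176, 134 and 154 CPM in control. The Myf5Cre-Pcyt2 libraries lay within a few CPM of each other and above all control libraries, which were spread more widely. The mean was 206 ± 1.63 CPM in Myf5Cre-Pcyt2 and 155 ± 21 CPM in control (SD, n = 3 each), a 1.33-fold difference (95% interval 1.13 to 1.56) with a log2 fold change of 0.41 (adjusted p = 0.0237, SE 0.11). The call was lost in the female libraries alone (adjusted p = 0.126), and without Myf5Cre-Pcyt2 replicate 1 (0.0511), replicate 2 (0.0745) or replicate 3 (0.0776) or control replicate 2 (0.0707).

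Igf2 (ENSMUSG00000048583, protein coding, GRCm38 chr7:142650766-142666816, minus strand), the fetal ligand of the pair, had 348, 429.8 and 251 CPM in Myf5Cre-Pcyt2 and 246, 188 and 203 CPM in control. The groups did not overlap, but the male Myf5Cre-Pcyt2 library stood only just above the highest control library. Means were 343 ± 89.5 CPM in Myf5Cre-Pcyt2 and 213 ± 30.2 CPM in control (SD, n = 3 each), a 1.61-fold difference (1.23 to 2.11), and the log2 fold change of 0.69 (SE 0.18) had an adjusted p of 0.0231. Without Myf5Cre-Pcyt2 replicate 2, the highest library, the log2 fold change was 0.49 and the call was lost (adjusted p = 0.0960). It was also lost without Myf5Cre-Pcyt2 replicate 1 (0.0513), control replicate 2 (0.0827) or control replicate 3 (0.0602). Of the 5723 exonic bases of Igf2, 3596 are shared on the same strand with the gene model Gm49394. The sources used here do not say how reads over shared bases were assigned. Gm49394 itself had 7, 7 and 3 counts in Myf5Cre-Pcyt2 and 3, 1 and 2 in control, beside 6510, 9843 and 5434 counts of Igf2 in Myf5Cre-Pcyt2 and 4656, 3248 and 3506 in control. By these counts, reads over the shared bases were not counted for both genes. Whether they were counted for Igf2 or left uncounted is not given.

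The ratio of the ligands within a library overlapped between the groups. Igf1 over Igf2 was 0.595, 0.474 and 0.822 in Myf5Cre-Pcyt2 and 0.715, 0.712 and 0.758 in control, as a ratio of counts. These ratios are too high if reads over the bases that Igf2 shares with Gm49394 were left uncounted. The Myf5Cre-Pcyt2 ratios lay on both sides of the narrow control range. The difference of −0.24 on the log2 scale had an exact two-sided permutation p of 0.4, where 3 against 3 libraries cannot go below 0.1. Leaving out Myf5Cre-Pcyt2 replicate 2 gave −0.058, and leaving out replicate 3 of that group gave −0.46.

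H19 (ENSMUSG00000000031, long non-coding RNA, GRCm38 chr7:142575529-142578143, minus strand) lies 72622 bases from Igf2 and is the host of the microRNA gene Mir675. The mature forms are shown because a gene-level H19 value cannot tell the host RNA from its products, and Mir483 is shown beside them as the microRNA gene within Igf2. RefSeq gives these sequences on GRCm38.p6, 5′ to 3′, with the seed (bases 2 to 8) in capitals, and no seed is shared among them.
mmu-miR-675-5p (chr7:142577112-142577133, minus strand): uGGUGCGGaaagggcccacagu
mmu-miR-675-3p (chr7:142577078-142577099, minus strand): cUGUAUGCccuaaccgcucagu
mmu-miR-483-5p (chr7:142654968-142654989, minus strand): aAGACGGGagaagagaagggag
mmu-miR-483-3p (chr7:142654932-142654952, minus strand): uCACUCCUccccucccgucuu
The row of Mir675, whose 84 bases lie within an H19 exon, had 0 counts in all 6 libraries. Mir483 had 10, 11 and 6 counts in Myf5Cre-Pcyt2 and 2, 2 and 1 in control and was too low to test. These libraries were made from total RNA with no size selection named in the labels, so the rows do not measure mature microRNA.

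H19 was among the most abundant transcripts of both groups. It took 2.88, 2.86 and 2.29% of all counts in Myf5Cre-Pcyt2 and 1.53, 1.51 and 1.69% in control. By counts it ranked 3rd, 2nd and 3rd among all genes in the Myf5Cre-Pcyt2 libraries and 7th, 9th and 6th in the control libraries. Levels were 28096, 25543 and 21242 CPM in Myf5Cre-Pcyt2 and 15854, 17665 and 17366 CPM in control, so every Myf5Cre-Pcyt2 library was above every control library, the male one least so. The mean was 24960.2 ± 3464 CPM in Myf5Cre-Pcyt2 and 16961.5 ± 971 CPM in control (SD, n = 3 each), a 1.47-fold difference (1.11 to 1.96). The log2 fold change of 0.56 (SE 0.19) did not pass the threshold with edgeR's quasi-likelihood test (adjusted p = 0.0600). It passed when scaled by library size alone (0.00303), with DESeq2 (2.8e-05), with limma-voom (0.0313) and with no filter on low counts (0.00717), 4 of 15 alternatives, over which the adjusted p reached 0.314.

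The ratio of H19 to Igf2 did not pass its test. H19 over Igf2 was 80.8, 59.4 and 84.6 in Myf5Cre-Pcyt2 and 64.3, 93.8 and 85.5 in control, as a ratio of counts, with overlapping groups. The size of this ratio, too, depends on how reads over the bases shared by Igf2 and Gm49394 were assigned. The lowest ratio was that of Myf5Cre-Pcyt2 replicate 2, the library with the most Igf2. The log2 difference was −0.11 (exact two-sided permutation p = 0.5, smallest possible 0.1), and it turned to 0.044 without that library. The antisense gene Igf2os, which shares 98 exonic bases with Igf2, rose with it, with 9.88, 11 and 7.90 CPM in Myf5Cre-Pcyt2 and 5.88, 4.06 and 5.16 CPM in control (log2 fold change 0.93, SE 0.18, adjusted p = 0.00787). The sources used here do not say whether counting used the strand. If it did not, reads of Igf2 and Igf2os over the shared bases cannot be told apart.

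**Figure D2:**
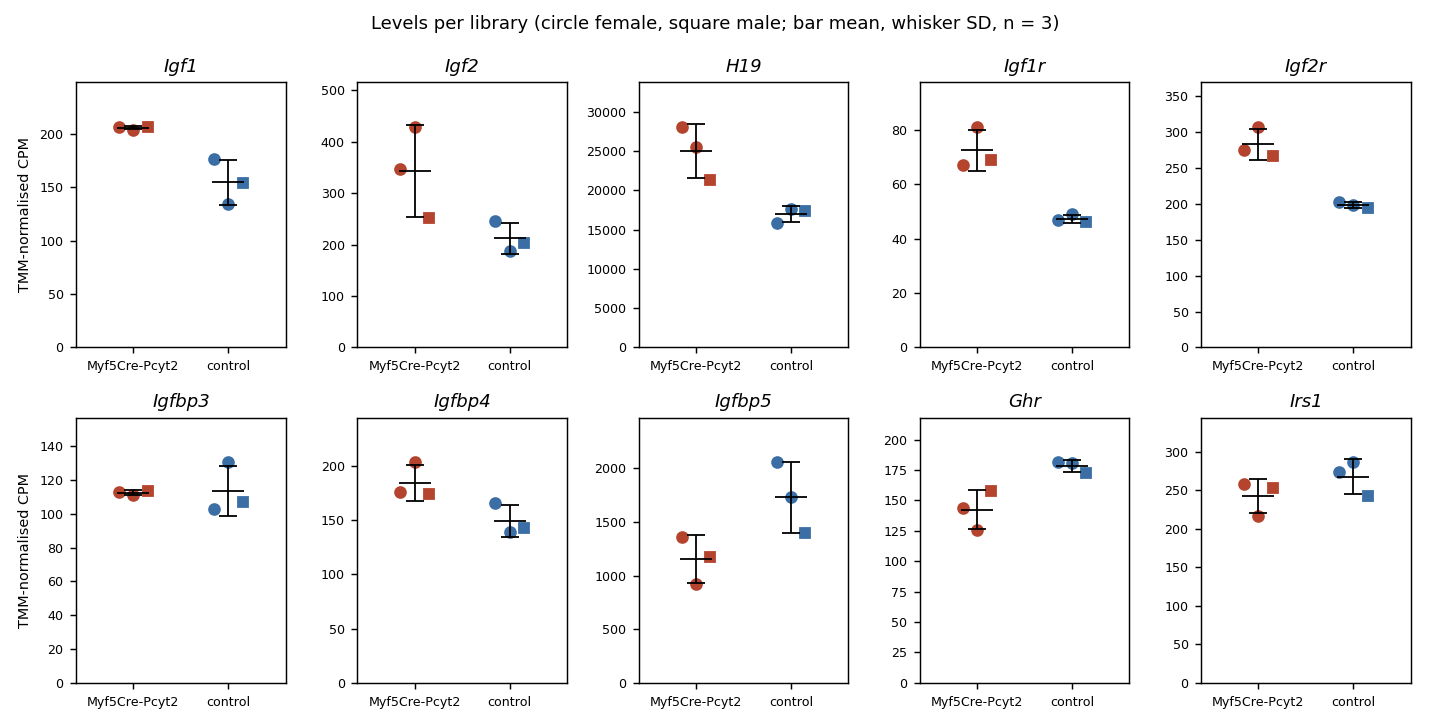
TMM-normalised CPM of each of the 10 genes in each library, Myf5Cre-Pcyt2 left of control, with circles for female and squares for male pups, and the mean and SD of 3 libraries as bars. The groups are apart for every gene except Igfbp3 and Irs1; each vertical axis starts at 0 and has its own scale.

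Both receptors rose, and they were the only genes of the 10 called under each of the 16 alternatives. Igf1r (ENSMUSG00000005533, protein coding, GRCm38 chr7:67952827-68233668, plus strand) encodes the tyrosine kinase receptor that carries the growth signal of both ligands. It had 67.3, 81.3 and 69.1 CPM in Myf5Cre-Pcyt2 and 46.8, 49.1 and 46.3 CPM in control. All Myf5Cre-Pcyt2 libraries were well above the narrow control range. The means of 72.6 ± 7.61 CPM in Myf5Cre-Pcyt2 and 47.4 ± 1.45 CPM in control (SD, n = 3 each) differed 1.53-fold (1.33 to 1.76), with a log2 fold change of 0.61 (adjusted p = 0.00378, SE 0.093). The highest adjusted p over the alternatives was 0.0258.

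Igf2r (ENSMUSG00000023830, protein coding, GRCm38 chr17:12682406-12769664, minus strand) encodes the receptor that clears IGF2 and is itself imprinted in mice, expressed from the maternal chromosome in most tissues. It had 274, 307 and 266 CPM in Myf5Cre-Pcyt2 and 202, 198 and 195 CPM in control. The groups were again well apart, with the highest value in Myf5Cre-Pcyt2 replicate 2, as for Igf1r. The means were 282 ± 21.9 CPM in Myf5Cre-Pcyt2 and 198 ± 3.87 CPM in control (SD, n = 3 each), 1.43-fold apart (1.24 to 1.64), with a log2 fold change of 0.51 (adjusted p = 0.00603, SE 0.091) that passed in 16 of 16 alternatives (highest adjusted p 0.0396). Airn, the antisense RNA that silences paternal Igf2r in mice, had 106, 197 and 140 counts in Myf5Cre-Pcyt2 and 113, 80 and 89 in control. The Airn groups overlapped, and the log2 fold change of 0.40 did not pass (adjusted p = 0.159). Igf2r over Igf1r was 4.07, 3.78 and 3.85 in Myf5Cre-Pcyt2 and 4.32, 4.03 and 4.20 in control, a log2 difference of −0.10 with an exact two-sided permutation p of 0.2.

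The promoters of the receptors are shown because the genes rose together, with that of Igfbp5, the member with the largest fall, beside them. Each is the RefSeq window on GRCm38.p6 of 250 bases before to 50 bases after a start, 5′ to 3′ on the strand of the gene. Capitals mark GC boxes (GGGCGG, either strand), and those that adjoin run together.
Igf1r (chr7:67952007-67952306, plus strand): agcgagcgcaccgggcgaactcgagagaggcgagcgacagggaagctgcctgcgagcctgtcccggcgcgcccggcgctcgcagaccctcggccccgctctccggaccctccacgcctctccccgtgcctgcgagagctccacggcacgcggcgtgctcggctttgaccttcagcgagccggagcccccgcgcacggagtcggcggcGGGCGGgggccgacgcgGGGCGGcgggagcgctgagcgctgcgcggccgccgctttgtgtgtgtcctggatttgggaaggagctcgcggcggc
Igf2r (chr17:12769657-12769956, minus strand): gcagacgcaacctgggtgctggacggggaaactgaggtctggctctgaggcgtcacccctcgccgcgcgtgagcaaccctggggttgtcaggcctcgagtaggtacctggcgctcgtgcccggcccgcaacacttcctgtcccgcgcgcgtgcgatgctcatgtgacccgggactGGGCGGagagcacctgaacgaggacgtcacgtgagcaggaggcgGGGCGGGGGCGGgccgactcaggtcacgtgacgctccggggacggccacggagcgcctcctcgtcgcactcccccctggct
Igfbp5 (chr1:72874816-72875115, minus strand): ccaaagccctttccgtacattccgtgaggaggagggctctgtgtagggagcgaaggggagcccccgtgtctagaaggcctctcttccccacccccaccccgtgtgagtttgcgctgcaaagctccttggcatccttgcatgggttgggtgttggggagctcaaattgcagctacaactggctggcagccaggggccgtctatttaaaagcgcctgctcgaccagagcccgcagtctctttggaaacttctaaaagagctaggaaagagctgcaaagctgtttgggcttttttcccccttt
The window of Igf1r held 2 GC boxes and that of Igf2r 3, where 35.7% of 32851 RefSeq promoters of the same length held at least 1. That of Igfbp5 held 0. Among the other genes called higher, the window of Igf1 held 0 and those of Igf2 held 2, 1, 0 and 0. The windows of Ghr, which also fell, held 0 and 2. Of the genes not called, Irs1 held 2, and Igfbp3 and Igfbp4 held 0. The GC boxes therefore did not divide the genes that rose from those that fell. The TATA box (TATAAA, either strand) matched in none of the 3 windows shown, and in 13.6% of all promoters. The E-box (CANNTG), the short motif read by myogenic basic helix-loop-helix factors, matched at 0 places in Igf1r, 4 in Igf2r and 1 in Igfbp5, and in 72.3% of all promoters at least once. GC content was 76.0% in Igf1r, 70.7% in Igf2r and 56.3% in Igfbp5, against a median of 52.7% over all promoters. It was 52.3% in Igf1, 49.7% to 64.7% over the windows of Igf2, and 52.3% and 67.0% in those of Ghr. In genes not called it was as high as in Igf2r, at 71.7% in Igfbp3, 71.3% in Igfbp4 and 71.3% in Irs1. A match is only a match of letters, and RefSeq windows were found for 9 of the 10 genes, all but H19.

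The binding proteins went different ways. Igfbp5 (ENSMUSG00000026185, protein coding, GRCm38 chr1:72857932-72874884, minus strand), known as the binding protein that myoblasts induce as they differentiate, had 1362, 925 and 1177 CPM in Myf5Cre-Pcyt2 and 2060.2, 1733 and 1395 CPM in control. The highest Myf5Cre-Pcyt2 library lay just under the lowest control library, and both groups were widely spread. Means were 1155 ± 219.6 CPM in Myf5Cre-Pcyt2 and 1729.5 ± 333 CPM in control (SD, n = 3 each), a ratio of 0.667 (0.511 to 0.873), with a log2 fold change of −0.58 (adjusted p = 0.0418, SE 0.18). The call was lost with library size alone, where the log2 fold change was −0.38 (adjusted p = 0.0850), with sex as a covariate (0.0623) and in the female libraries alone (0.0917). It was lost without Myf5Cre-Pcyt2 replicate 2 (0.161) or replicate 3 (0.115) and without control replicate 1 (0.104) or replicate 2 (0.0883).

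Igfbp4 (ENSMUSG00000017493, protein coding, GRCm38 chr11:99041244-99054392, plus strand), an inhibitor of IGF action that the protease PAPP-A cleaves, had 175, 203 and 173 CPM in Myf5Cre-Pcyt2 and 165, 139 and 142 CPM in control. Its groups did not overlap, with means of 184 ± 16.8 CPM in Myf5Cre-Pcyt2 and 149 ± 14.5 CPM in control (SD, n = 3 each). The log2 fold change of 0.31 (SE 0.10) did not pass (adjusted p = 0.0620). It passed with library size alone (0.0158), with DESeq2 (0.0371), with no filter on low counts (0.0352) and without control replicate 1 (0.0336), over a range of 0.0158 to 0.221. Igfbp3 (ENSMUSG00000020427, protein coding, GRCm38 chr11:7206086-7213923, minus strand), the main carrier of IGFs in blood, had 113, 111 and 113 CPM in Myf5Cre-Pcyt2 and 103, 131 and 107 CPM in control. The Myf5Cre-Pcyt2 libraries lay inside the control range, and the log2 fold change of −0.011 (95% interval −0.23 to 0.21, adjusted p = 0.950) changed sign without control replicate 2 (0.10) and with library size alone (0.21).

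As a ratio of counts, Igfbp5 over Igfbp4 was 7.77, 4.55 and 6.78 in Myf5Cre-Pcyt2 and 12.5, 12.5 and 9.79 in control. The groups did not overlap. The log2 difference was −0.89, with an exact two-sided permutation p of 0.1, the smallest possible here. In CPM every Myf5Cre-Pcyt2 library was lower for Igfbp5 and higher for Igfbp4, so this ratio had to separate the groups. Its p therefore adds nothing to the results of the separate genes.

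Ghr (ENSMUSG00000055737, protein coding, GRCm38 chr15:3317760-3583492, minus strand), the growth hormone receptor, had 144, 126 and 158 CPM in Myf5Cre-Pcyt2 and 182, 181 and 173 CPM in control. Every Myf5Cre-Pcyt2 library was below every control library. The means of 142 ± 16.1 CPM in Myf5Cre-Pcyt2 and 178 ± 4.78 CPM in control (SD, n = 3 each) gave a ratio of 0.798 (0.686 to 0.928), and the log2 fold change of −0.33 (SE 0.10) had an adjusted p of 0.0429. With library size alone the log2 fold change was −0.12 and the call was lost (adjusted p = 0.410), as it was with sex as a covariate (0.0557) and in the female libraries alone (0.0648). Leaving out any single library also ended the call. The adjusted p was then 0.0772, 0.156 and 0.0508 without Myf5Cre-Pcyt2 replicates 1, 2 and 3, and 0.0780, 0.0991 and 0.0552 without control replicates 1, 2 and 3.

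Irs1 (ENSMUSG00000055980, protein coding, GRCm38 chr1:82233101-82291416, minus strand), the adaptor that links the insulin and IGF1 receptors to PI3-kinase, had 258, 217 and 253 CPM in Myf5Cre-Pcyt2 and 274, 287 and 243 CPM in control. The groups overlapped, with means of 243 ± 22.5 CPM in Myf5Cre-Pcyt2 and 268 ± 22.4 CPM in control (SD, n = 3 each). The log2 fold change of −0.14 (adjusted p = 0.361, SE 0.10) turned to 0.068 with library size alone. The opposite strand of Irs1 carries the gene model Gm9747 over 2822 of its 9144 exonic bases, and Gm9747 had 65, 114 and 69 counts in Myf5Cre-Pcyt2 and 53, 7 and 37 in control.

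Per length, as CPM per kilobase of merged exons, H19 was far above the rest, with 10146 ± 1408 in Myf5Cre-Pcyt2 and 6895 ± 395 in control (SD, n = 3 each). It ranked 3rd of 14705 tested genes with a length in Myf5Cre-Pcyt2 and 9th in control. Igfbp5 followed with 192 ± 36.6 in Myf5Cre-Pcyt2 and 288 ± 55.4 in control, at ranks 139 and 113. Igf2 came next in both groups, at 59.9 ± 15.6 in Myf5Cre-Pcyt2 and 37.2 ± 5.27 in control. Its 5723 exonic bases include 3596 shared with Gm49394, and this level is too low if reads over them were left uncounted. The same holds for Irs1 and Gm9747 if counting ignored the strand. All 2822 exonic bases of Gm9747 are shared with Irs1, yet Gm9747 had counts in every library. Reads over these bases were therefore not all left uncounted. Igfbp4 had 41.7 ± 3.80 in Myf5Cre-Pcyt2 and 33.7 ± 3.27 in control, and Igfbp3 had 35.9 ± 0.393 in Myf5Cre-Pcyt2 and 36.2 ± 4.81 in control. Igf2r had 30.3 ± 2.35 in Myf5Cre-Pcyt2 and 21.3 ± 0.416 in control, and Irs1 had 26.6 ± 2.46 in Myf5Cre-Pcyt2 and 29.3 ± 2.44 in control. In Myf5Cre-Pcyt2 the neighbours Igf2 and Igfbp4, and Igf2r and Irs1, lay within their SDs of each other. In control that held for each neighbouring pair in the order Igf2, Igfbp3, Igfbp4 and Irs1. Igf1 was lower per length than Igf2 in both groups, at 20.8 ± 0.164 in Myf5Cre-Pcyt2 and 15.6 ± 2.12 in control. Ghr was below Igf1 in Myf5Cre-Pcyt2 (15.7 ± 1.78) and above it in control (19.7 ± 0.528). Igf1r was the lowest of the 10 in both groups, with 4.32 ± 0.453 in Myf5Cre-Pcyt2 and 2.82 ± 0.0867 in control.

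The other genes of the axis were read from lists, which were chosen with earlier results of these data known. The shares of calls in these lists, here and below, are therefore a description and not an independent test. Of 15 other ligands, binding proteins and processing genes, 11 were tested, 3 rose and none fell (median log2 fold change 0.29). The share that rose was 27.3%, where 9.02% of all tested genes rose. Besides Igf2os, the risers were 2 proteases that free IGFs from binding proteins, whereas the proteases Adam12 (0.34, adjusted p = 0.114) and Htra1 (0.11, adjusted p = 0.408) were not called. Pappa2, which cleaves IGFBP3 and IGFBP5, had 3.68, 2.97 and 3.33 CPM in Myf5Cre-Pcyt2 and 1.48, 1.80 and 1.51 CPM in control (log2 fold change 1.06, SE 0.20, adjusted p = 0.00787). Pappa, which cleaves IGFBP4, had 6.94, 5.55 and 4.90 CPM in Myf5Cre-Pcyt2 and 3.55, 3.25 and 3.19 CPM in control (0.79, SE 0.18, adjusted p = 0.0152). For both, all Myf5Cre-Pcyt2 libraries were above all control libraries. In the female libraries alone neither call held (adjusted p = 0.0680 for Pappa2 and 0.0554 for Pappa), and that of Pappa was lost without Myf5Cre-Pcyt2 replicate 2 (0.0520). The list held 7 higher genes with library size alone, 5 with no filter and 5 without control replicate 1.

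Of 43 genes of growth hormone, insulin and IGF receptor signalling, 41 were tested, of which 6 rose, 3 fell and 32 were not called (median log2 fold change 0.027). Those shares, 14.6% higher and 7.32% lower, were near the 9.02% and 9.59% of all tested genes, so the count says little about the list. Grb10, an imprinted adaptor that restrains insulin and IGF1 receptor signalling, had 841, 829 and 805 CPM in Myf5Cre-Pcyt2 and 591, 498 and 595 CPM in control (log2 fold change 0.56, SE 0.11, adjusted p = 0.00795). Its relative Grb14, which inhibits the insulin receptor, went the other way, with 11.6, 12.4 and 12.9 CPM in Myf5Cre-Pcyt2 and 23.0, 22.7 and 22.1 CPM in control (−0.88, SE 0.090, adjusted p = 0.00118). Groups were apart and tight for both adaptors. The insulin receptor gene Insr (0.40, adjusted p = 0.0119), the FoxO factor gene Foxo3 (0.37, adjusted p = 0.0147) and Stat5a, whose product relays the growth hormone signal (0.49, adjusted p = 0.0152), also rose on the log2 scale. Foxo4 fell by 0.37 (adjusted p = 0.0315), and so did Cish, a feedback inhibitor that STAT5 induces, with 11.9, 14.3 and 14.6 CPM in Myf5Cre-Pcyt2 and 58.8, 19.7 and 21.9 CPM in control (−1.30, SE 0.35, adjusted p = 0.0269). Control replicate 1, the library with the most adipocyte marker RNA, held far more Cish than the other 5 libraries, and without it the log2 fold change was −0.61 (adjusted p = 0.0101).

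Several of these signalling calls were lost when a single library was left out, for most of them any of several. Calls over all genes fell as well, from 2739 to 846 without Myf5Cre-Pcyt2 replicate 2. They numbered 1280 without replicate 3 of that group and 1300 without control replicate 2. Without Myf5Cre-Pcyt2 replicate 2 the adjusted p was 0.0545 for Insr, 0.0533 for Stat5a, 0.0904 for Cish and 0.114 for Foxo4. Without Myf5Cre-Pcyt2 replicate 3 it was 0.0526 for Insr, 0.0618 for Foxo3, 0.0688 for Cish and 0.112 for Foxo4. Without control replicate 2 it was 0.0588 for Stat5a and 0.0996 for Foxo4, and without Myf5Cre-Pcyt2 replicate 1 it was 0.0725 for Cish. The list then held 2 higher genes without either of those Myf5Cre-Pcyt2 libraries 2 and 3, and 3 without control replicate 2, with 1 lower gene without Myf5Cre-Pcyt2 replicate 2 or 3. Foxo4 was not called with library size alone (−0.15, adjusted p = 0.216), nor Cish with DESeq2 (0.0602), and in the female libraries alone Grb14 was the only gene named from this list that stayed past the threshold, while 17 genes were called higher with library size alone.

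Of 16 genes that act on Igf2 or H19 RNA or on their imprinting, 13 were tested, 6 rose and none fell (median log2 fold change 0.36). The share that rose was 46.2%, beside 9.02% of all tested genes. Plagl1, an imprinted zinc finger factor that activates Igf2 and H19 in mice, had 155, 163 and 124 CPM in Myf5Cre-Pcyt2 and 72.1, 53.1 and 71.6 CPM in control (log2 fold change 1.17, SE 0.14, adjusted p = 0.00165). Zfp568, a zinc finger repressor of a placental Igf2 transcript in mice, had 115, 108 and 99.98 CPM in Myf5Cre-Pcyt2 and 75.6, 75.5 and 80.7 CPM in control (0.48, SE 0.085, adjusted p = 0.00610). In both cases the groups were apart, and both calls held in 16 of 16 alternatives. Ago2, an effector of microRNA silencing (0.44, adjusted p = 0.00822), and the maintenance DNA methyltransferase gene Dnmt1 (0.44, adjusted p = 0.0129) also rose, and the Dnmt1 call was lost without Myf5Cre-Pcyt2 replicate 2 (0.0637), without control replicate 2 (0.0519) and in the female libraries alone (0.0770). The other 2 risers, named after their values were seen, were Igf2bp2 (0.85, adjusted p = 0.0160) and Igf2bp3 (0.94, adjusted p = 0.0185), which encode proteins that bind Igf2 mRNA. Their calls were not followed over the alternatives. The list held 3 higher genes without Myf5Cre-Pcyt2 replicate 2.

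**Figure D3:**
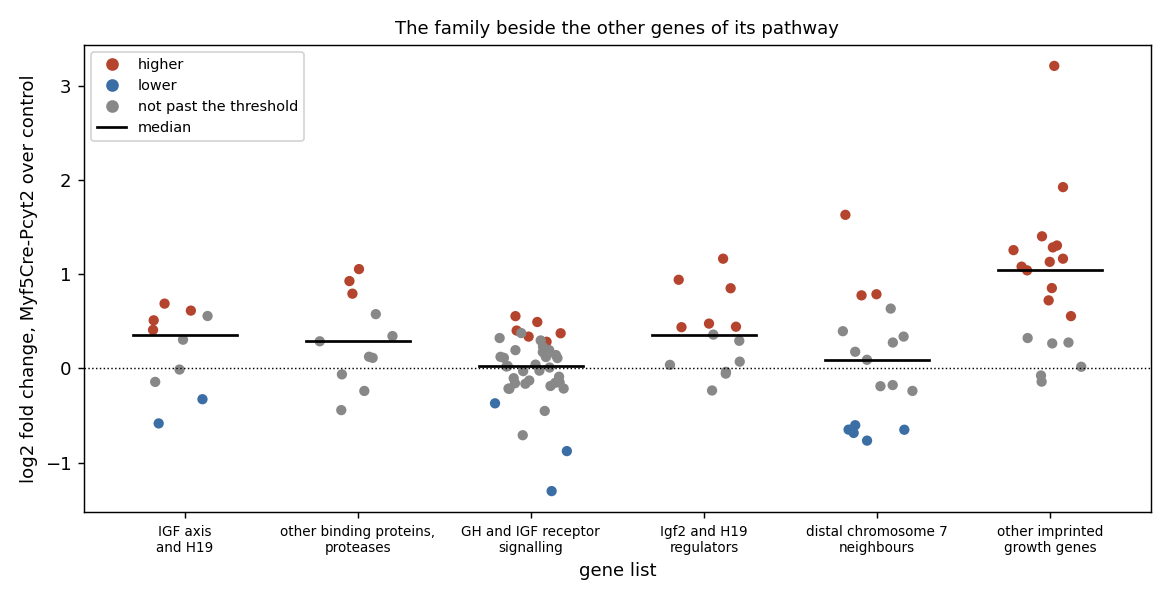
Log2 fold change (Myf5Cre-Pcyt2 over control) of every tested gene in the 10-gene family and in 5 lists of related genes, with the median of each as a bar, higher calls in red and lower calls in blue. The medians are 0.36 for the family, 0.29, 0.027, 0.36 and 0.092 for the next 4 lists and 1.04 for other imprinted growth genes.

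Around H19 and Igf2 on distal chromosome 7 the neighbours went both ways, and those that fell lay on 1 side. Of 22 listed neighbours 17 were tested, of which 3 rose and 5 fell (median log2 fold change 0.092). The shares were 17.6% higher and 29.4% lower, beside 9.02% and 9.59% of all tested genes. On the Tnnt3 side of H19 lie Lsp1, which encodes an actin-binding protein of leukocytes (18.1 ± 1.72 CPM in Myf5Cre-Pcyt2 and 30.8 ± 0.383 CPM in control, log2 fold change −0.77, adjusted p = 0.00170), and Prr33 (92.5 ± 10.3 CPM in Myf5Cre-Pcyt2 and 149 ± 19.9 CPM in control, −0.68, adjusted p = 0.00542). Between and beside them lie the fast troponin genes Tnni2 (4799 ± 676 CPM in Myf5Cre-Pcyt2 and 7286 ± 608 CPM in control, −0.60, adjusted p = 0.0250) and Tnnt3 (11632 ± 1027 CPM in Myf5Cre-Pcyt2 and 18257 ± 2970 CPM in control, −0.65, adjusted p = 0.0337), parts of the thin filament. The fifth faller, Nctc1, a muscle non-coding RNA gene nearest to H19 and named after its values were seen, had 52.7, 34.3 and 62.2 CPM in Myf5Cre-Pcyt2 and 91.1, 78.7 and 64.0 CPM in control (−0.65, adjusted p = 0.0398). The call of Nctc1 was not followed over the alternatives. All 5 were lower in every Myf5Cre-Pcyt2 library, as the summed fibre markers were, among which Tnnt3 is counted. The part of that fall in theirs was not tested.

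The risers were Trpm5, a cation channel gene (3.20, 3.49 and 2.73 CPM in Myf5Cre-Pcyt2, 1.16, 1.16 and 0.695 CPM in control, log2 fold change 1.63, adjusted p = 0.00387), Mrpl23, a mitochondrial ribosome gene (0.79, adjusted p = 0.0480), and Kcnq1ot1, the imprinted antisense RNA of Kcnq1 (0.78, adjusted p = 0.0415). Mrpl23 was low, with 55, 55 and 49 counts in Myf5Cre-Pcyt2 and 29, 18 and 31 in control. Trpm5 shares 220 exonic bases with Tssc4 on the opposite strand, and the Kcnq1ot1 groups overlapped. Trpm5, Lsp1 and Prr33 were called in 16 of 16 alternatives, whereas the adjusted p reached 0.263 for Tnni2, 0.269 for Tnnt3, 0.181 for Kcnq1ot1 and 0.148 for Mrpl23. Without Myf5Cre-Pcyt2 replicate 2 it was 0.116, 0.147, 0.181 and 0.117 for these 4 genes, without Myf5Cre-Pcyt2 replicate 3 it was 0.137, 0.158, 0.105 and 0.0889, and without control replicate 2 it was 0.0595, 0.0769, 0.141 and 0.148, each in that order. Without Myf5Cre-Pcyt2 replicate 1 it was 0.0619 for Tnnt3 and 0.120 for Mrpl23, without control replicate 3 it was 0.0851 for Kcnq1ot1, and without control replicate 1 it was 0.0732 for Mrpl23. The neighbours called higher then numbered 1 without Myf5Cre-Pcyt2 replicate 2 or 3 or control replicate 2, and those called lower 2 or 3 without those libraries or Myf5Cre-Pcyt2 replicate 1.

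**Figure D4:**
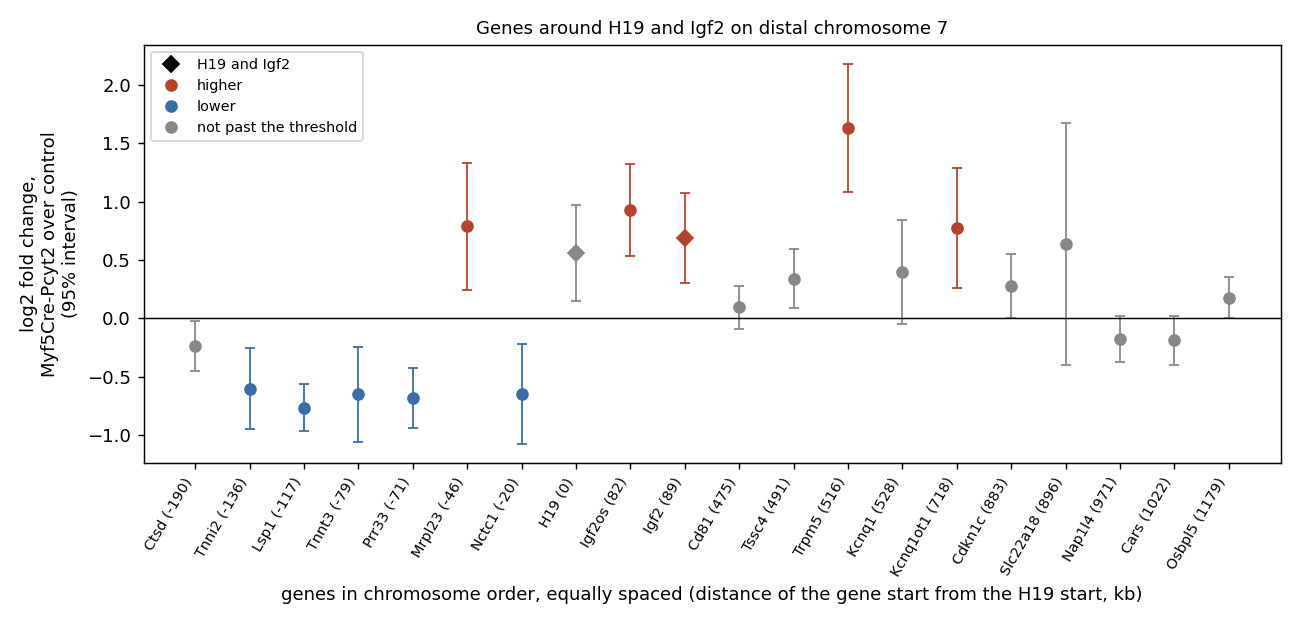
Log2 fold change (Myf5Cre-Pcyt2 over control) with 95% intervals of the tested genes around H19 and Igf2, in chromosome order, with each distance from the start of H19 in kilobases beside the name. The 5 blue genes, all past the threshold and lower, lie left of H19, and the red genes, higher, lie on both sides.

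Other imprinted growth genes mostly rose. Of 20 listed, 19 were tested, 13 rose and none fell, with a median log2 fold change of 1.04. The share that rose was 68.4%, beside 9.02% of all tested genes. Plagl1 and Grb10, given above, are among them, and Dlk1 (1.93, adjusted p = 0.00142), Zim1 (1.31, adjusted p = 0.00111) and Ndn (0.85, adjusted p = 0.00279) were called in 16 of 16 alternatives. Dlk1, Zim1 and Ndn each have close chromosomal neighbours among the 13, so the share does not count 13 separate loci.

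The genes with profiles nearest to the ligands and H19 over the 6 libraries were found as the smallest root-mean-square (RMS) difference of centred log2 CPM among 8485 tested genes. Nearest to Igf2 were the FGF receptor gene Fgfr4 (RMS 0.115) and the growth factor gene Mdk (0.134), against a median RMS of 0.441 over all compared genes. Nearest to H19 were Penk (0.0807), which encodes proenkephalin, Tshz3 (0.0840) and Zfp568 (0.0865), against a median of 0.330. Nearest to Igf1 were the kinase gene Prkci (0.0215), the microRNA processing gene Dgcr8 (0.0225) and Pja1 (0.0298), a ubiquitin ligase gene, against a median of 0.272. The 6 libraries form 2 groups, so near profiles share the group difference as well as library and scaling.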

How the data were processed

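RNA sequencing libraries from P10 quadriceps (1.3 µg of total RNA each, per the labels) were compared, 3 Myf5Cre-Pcyt2 against 3 control. The deposited values are raw read counts per Ensembl gene, 6 columns and no others. Per the submitters' processing notes, which give no roles, the authors used GRCm38 with the aligner Bowtie2 (2.3.4.1), the trimmer Trim Galore (0.5.0) and the counter featureCounts from Subread (1.6.2). The sources used here do not give the annotation release or the settings for strand, shared exons and multiply mapped reads. A symbol was found for 54409 of 54532 rows in GENCODE M21, which also gave positions and merged exon lengths.

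Genes were filtered with filterByExpr and scaled with TMM in edgeR 4.0.16 (R 4.3.3), and tested with its two-sided quasi-likelihood test, ~ group, with Benjamini-Hochberg adjustment over 14715 genes and a threshold of 0.05. CPM are deposited counts relative to the TMM-scaled library total. Fold intervals are 95% intervals from the fit. The biological coefficient of variation was 11.6%. No library was a copy of another. Ratios of counts within a library were compared by exact permutation. The procedure was tested on simulated counts. Tried in place of these were scaling by library size alone or by DESeq2 size factors, the tests of limma-voom (limma 3.58.1) and DESeq2 1.42.0, 2 other filters (none, and 1 CPM in 3 libraries), leaving out the 20 most abundant genes, a replicate block, sex as a covariate, female libraries only, each library left out, and 0.5 count added to both genes of a ratio. Annotations were read with pandas 2.3.3 and figures drawn with matplotlib 3.10.9, in Python 3.11.15.

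Members, lists and tests were chosen with earlier results of these data known. Named are the 10 members, Pcyt2, Myf5, up to 4 genes per list and direction by smallest p, and the 3 genes nearest in profile to each of Igf2, H19 and Igf1 among genes averaging 10 CPM or more, unnamed models left out. The rule also selected 1 gene whose result is not reported here.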

Additional observations from a re-analysis of the deposited data

How the results depend on the processing

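At this depth Mir483, with 1 to 11 counts per library, could not be tested. Of 159 refits of the 10 genes, 121 kept direction and side of the threshold, 27 lost a call, 8 gained 1 and 3 changed sign: Igfbp3 with library size alone (0.21) and without control replicate 2 (0.10), and Irs1 with library size alone (0.068). With a library left out Igfbp3 ranged from −0.076 to 0.10. Myf5 changed sign in the female libraries alone (−0.032), and H19 over Igf2 without Myf5Cre-Pcyt2 replicate 2 (0.044, within a range of −0.27 to 0.044 over libraries left out). The cause was not tested in any of these cases.

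Calls over all genes were 3225 higher and 499 lower with library size alone, 434 and 435 in the female libraries alone, and 422 to 1337 higher and 424 to 1448 lower with a library left out. Within the 10 genes the number lower was 0 with the replicate block, with sex as a covariate, with library size alone and in the female libraries alone, and 2 to 5 were higher and 0 to 1 lower with a library left out. With library size alone 7, 17 and 7 genes were higher among the binding and processing genes, the signalling genes and the distal chromosome 7 neighbours. In the female libraries alone these were 1, 0 and 1, with 1 signalling gene and 3 neighbours lower. Without a filter 5 binding and processing genes were higher. With sex as a covariate 1 neighbour was higher and 2 lower, and without the 20 most abundant genes, which takes out tested neighbours themselves, 3 were lower. With a library left out the ranges were 2 to 5 higher for binding and processing, 2 to 8 higher and 1 to 3 lower for signalling, 3 to 7 higher for the regulators of Igf2 and H19, 1 to 3 higher and 2 to 5 lower for the neighbours, and 11 to 14 higher for imprinted growth genes.

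The replicate number as a block left 865 genes higher and 866 lower of 14715, with 1 neighbour higher and 3 lower, and the calls of Igfbp5 (0.0698) and Ghr (0.0940) were not made. Deviations of same-numbered libraries correlated at −0.11, −0.17 and 0.018, and 1 of 3 Myf5Cre-Pcyt2 libraries was closest to its own number. These values showed no pairing by number. With 3 libraries per group they cannot exclude it, and the labels name no pairing.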
